A study of Mus musculus with 8 samples.

Results

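The transcripts of 9 genes that encode secreted regulators of metabolism were followed in mouse liver, namely Fgf21, Gdf15, Angptl4, Angptl6, Angptl8, Fetub, Ahsg, Igfbp2 and Lect2. The members were named by gene symbol, and the estimated counts of their 29 listed transcripts were summed per gene. They are 9 of 35975 genes with a matched transcript, and 9 of the 9 reached the minimum for a test, 10 counts in each library, as did 12883 genes in all. Livers came from C57BL/6 mice (C57BL/6J in the methods of the study) that received normal saline (4 livers) or 4-hydroxyphenylacetic acid, abbreviated 4-HPAA (4 livers), through the portal vein for 2 weeks. The comparison asks what this product of the gut microbial breakdown of polyphenols does to liver transcripts when it reaches the liver by its natural route. All mice of both groups had the same surgery: a catheter in the portal vein joined to an osmotic pump under the skin, followed by single housing on standard chow. The saline group is therefore a control for the compound and not for the surgery. According to the methods of the study the mice were young adults, and mice of both sexes were used in it. The labels give no sex. Summed Y-linked transcripts were at 152 to 180 CPM (counts per 1000000 counts, normalized by the TMM method of edgeR) in all 8 libraries. Each of the 8 libraries therefore held RNA of male mice. The labels number the livers 1 to 4 in each group as replicates and do not state that each is a separate mouse. If they were not, the p-values measure only the spread between these samples, which may be technical.

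Hepatokines are proteins that the liver releases into blood to act on fat, muscle, brain or vessel wall, or to bind other circulating factors. FGF21 signals through FGF receptors with the co-receptor beta-klotho and is induced by fasting and by cell stress, GDF15 signals to the hindbrain, and the angiopoietin-like proteins 4 and 8 restrain lipoprotein lipase. The fetuins are abundant plasma proteins of the cystatin superfamily, IGFBP2 binds insulin-like growth factors, and LECT2 was found as a chemotactic factor for leukocytes. In bulk liver RNA, fewer cells of a type and less RNA per cell cannot be told apart.

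Total estimated counts lay between 29559978 and 30673398 per library. Hepatocyte markers (8 genes, among them Alb and Ttr) summed to 110951 to 132709 CPM with saline and 104382 to 133956 CPM with 4-HPAA. Liver 4 of each group was the highest of its group in this sum. It was the lowest in 8 Kupffer cell and macrophage markers, at 88.3 CPM with saline and 79.3 CPM with 4-HPAA. Most of the hepatocyte sum was Alb. Alb, Ttr and Fabp1 were highest in liver 4 of each group, Cyp2e1 and Serpina1c were lowest there, and Apoa1, Tat and Hnf4a differed between the groups in this. Markers of lymphocytes, neutrophils, adipocytes and pancreas summed to at most 16.6 CPM per list, with the fat hormone gene Lep and the pancreatic genes Prss2 and Pnlip at 0 in every library. Some libraries stood apart from their group. Red blood cell markers (6 genes) summed to 2609 CPM in saline liver 2 against 247 to 376 CPM in the rest of that group, and to 735 CPM in 4-HPAA liver 4 against 152 to 164 CPM. In 4-HPAA liver 4 the globin genes stood out, with Hbb-bs at 336 CPM against 31 to 46.4 CPM. Alas2 was within the range of that group at 97 CPM, and Slc4a1 was at 0.28 CPM, against 48.8 CPM in saline liver 2. In saline liver 1, the early response gene Nr4a1 was at 22.1 CPM against 0.918 to 3.09 CPM, and the stress gene Ddit4 at 90.8 CPM against 22.8 to 29.4 CPM in the other saline livers. The values below are therefore also given without these libraries where the outcome rests on them.

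The level of the 9 transcripts spanned more than 3 orders of magnitude. On the TPM scale (transcripts per 1000000, which corrects for transcript length), Ahsg averaged 7711 over the 8 livers, rank 24 among 22763 genes with a value above 0, and made up 0.771% of the total. Igfbp2 followed with 668 TPM and Fetub with 503 TPM, and the libraries of these neighbours overlapped. Angptl4 with 153 TPM and Lect2 with 104 TPM each lay apart from their neighbours in every library. The low end held Angptl8 with 17.8 TPM, Angptl6 with 9.11 TPM, Gdf15 with 5.8 TPM and Fgf21 with 3.13 TPM, and each overlapped the next in that order. The order thus had 4 steps at which no library of one gene reached the other, and without saline liver 2 or 4-HPAA liver 3 it had 5.

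**Figure D1:**
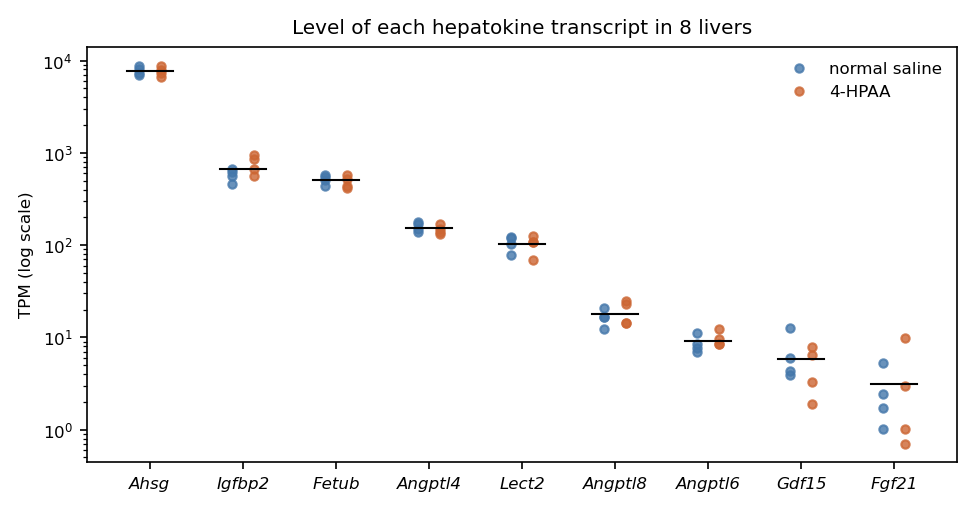
Level of each hepatokine transcript in TPM on a log axis, with 1 point per liver (blue, normal saline; orange, 4-HPAA; 4 livers each) and a line at the mean of the 8 livers. Ahsg lies far above the rest with a mean of 7711 TPM, and Fgf21, lowest at 3.13 TPM, has the widest scatter.

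None of the 9 genes passed the test between the groups. Their adjusted p was 1.00 in each case (edgeR's quasi-likelihood test, adjusted by Benjamini and Hochberg's method), and 0 of the 12883 genes tested passed, a background of 0%. By DESeq2 2 genes passed and by limma-voom 0, neither count including a member. An unadjusted p under 0.05 was found for 1 member, Igfbp2, where 225 genes or 1.75% of all tested had one (0.753% higher with 4-HPAA and 0.994% lower). The 4-HPAA and saline livers overlapped in 9 of 9 members, where the groups did not overlap for 1.20% of all genes. Of the members, 4 had a positive and 5 a negative log2 fold change, with a median of -0.02 against 0.001 over all genes. The median absolute log2 fold change was 0.21 against 0.07 over all genes. The members with the widest 95% intervals, Fgf21 and Gdf15, were also those with the largest spread within groups.

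**Figure D2:**
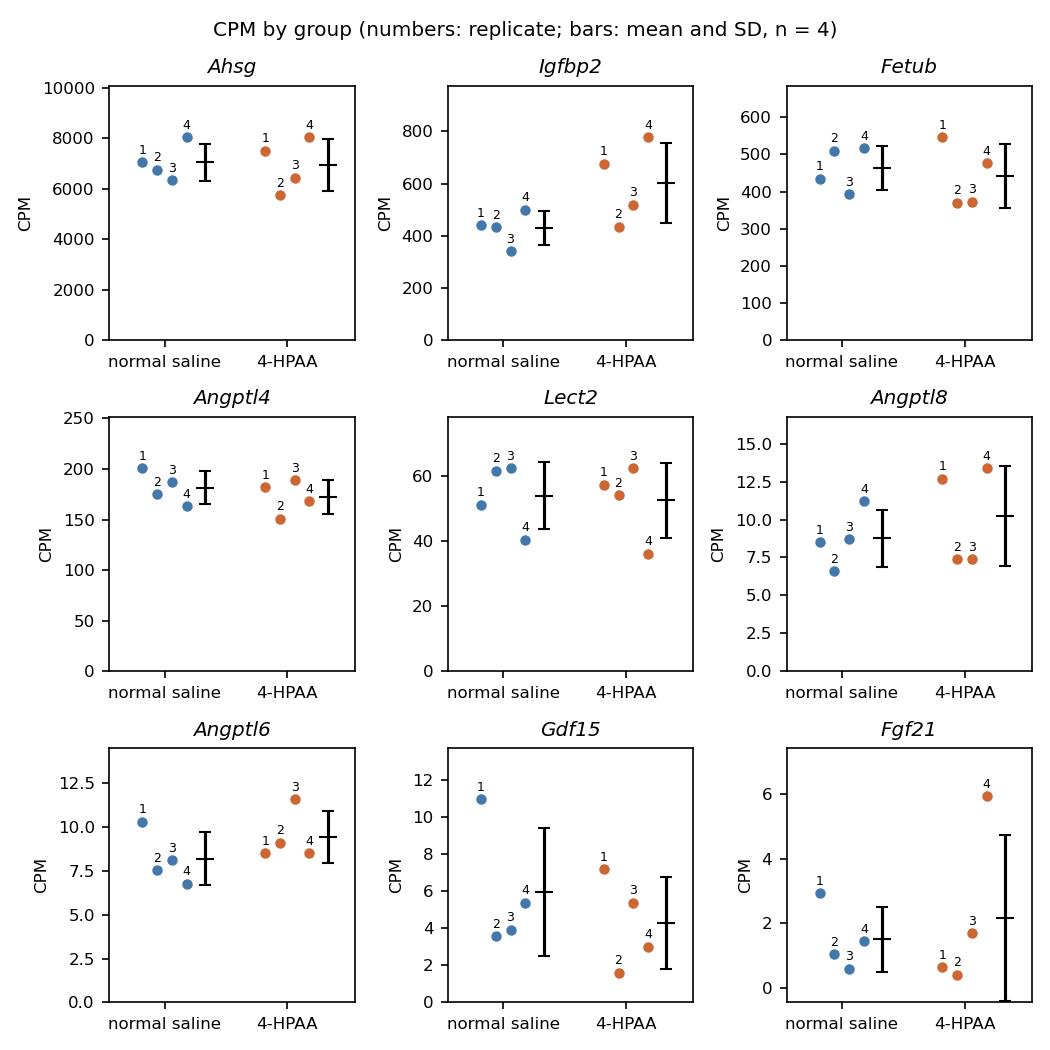
CPM of the 9 transcripts in each liver, ordered by level, with points numbered by replicate and bars for the mean and SD of 4 livers. The groups overlap in every panel, and in the Fgf21 panel 4-HPAA liver 4 stands alone at 5.95 CPM.

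**Figure D3:**
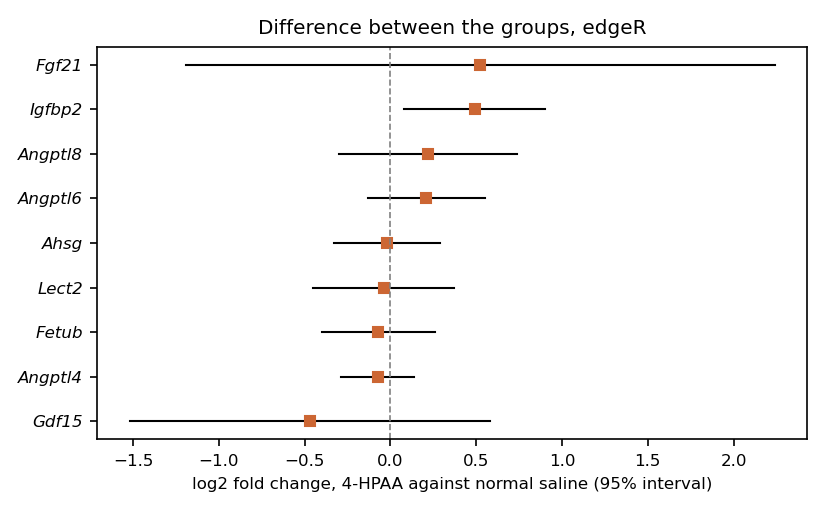
Log2 fold change of 4-HPAA against normal saline for the 9 members, with 95% intervals from edgeR's quasi-likelihood fit. The interval of Igfbp2 (0.08 to 0.90) lies above 0, and the intervals of the other members cross it.

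Igfbp2 encodes a binding protein that holds insulin-like growth factors in plasma. It lies on chromosome 1 (chr1:72824503-72852474, GRCm38, as for all positions of genes, plus strand). The saline livers measured 441, 434, 341 and 500 CPM, and the 4-HPAA livers 676, 435, 519 and 779 CPM. Values with 4-HPAA were the higher in 14 of 16 pairs of livers, and 4-HPAA liver 2 fell inside the saline range. The means were 429 ± 65.4 CPM with saline and 603 ± 154 CPM with 4-HPAA (SD, n = 4 each), a ratio of 1.4 with a 95% interval of 1.06 to 1.87. The log2 fold change was 0.49 (standard error 0.18; edgeR's quasi-likelihood test, unadjusted p = 0.0241, adjusted p = 1.00), so the difference did not pass the test. With each library left out in turn it ranged from 0.34, without 4-HPAA liver 4, to 0.62, without 4-HPAA liver 2, and had an unadjusted p under 0.05 in 5 of 8 cases. Without both livers with a high red blood cell marker sum (saline 2 and 4-HPAA 4) it was 0.34.

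The gene has a pair of coding transcripts that begin 819 bases apart and differ in the first of their 4 exons. Igfbp2-201 begins with an exon of 462 bases that holds the start of its 305-residue reading frame, while Igfbp2-202 begins inside the intron that follows with an exon of its own of 153 bases, and its annotated reading frame of 158 residues starts in exon 2. The bases before each start are shown because the estimated counts of these transcripts differed in opposite directions between the groups. Neither difference passed the test. The first is the RefSeq promoter window (GRCm38.p6) before the start of Igfbp2-201, chr1:72824230-72824479. The second is chr1:72825137-72825321, the part of a RefSeq window that precedes the Ensembl start of Igfbp2-202. Both are given on the plus strand with CG dinucleotides in capitals.
Igfbp2-201: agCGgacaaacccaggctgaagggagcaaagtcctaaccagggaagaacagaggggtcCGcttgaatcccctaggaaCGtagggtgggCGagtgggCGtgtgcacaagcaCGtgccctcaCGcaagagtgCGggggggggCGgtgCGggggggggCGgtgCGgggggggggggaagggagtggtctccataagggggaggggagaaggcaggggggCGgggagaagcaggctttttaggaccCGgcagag
Igfbp2-202: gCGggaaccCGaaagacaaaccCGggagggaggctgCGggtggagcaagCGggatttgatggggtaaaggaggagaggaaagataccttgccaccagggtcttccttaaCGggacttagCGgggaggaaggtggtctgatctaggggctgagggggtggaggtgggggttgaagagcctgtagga
The first holds 14 CG dinucleotides in 250 bases and the second 7 in 185. Over the whole RefSeq windows, which reach 50 bases past the start, the counts were 18 and 14, against a median of 7 among 32817 RefSeq promoters. Methylation was not measured in these libraries.

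The groups did not overlap for Igfbp2-201, though its difference did not pass the test. Its estimated counts were 10903, 10773, 8652 and 11083 with saline and 15183, 12594, 15757 and 21426 with 4-HPAA, so that every 4-HPAA liver lay above every saline liver. Its log2 fold change was 0.68 (standard error 0.17, 95% interval 0.29 to 1.07). Its unadjusted p was 0.00299 and its adjusted p 1.00 over the 25533 single transcripts tested with edgeR's quasi-likelihood test, and it did not pass. Of the 29 member transcripts, 23 reached the minimum of 10 counts in each library. Igfbp2-201 was the 1 with an unadjusted p under 0.05 (3.83% of all transcripts tested, and 0% with an adjusted p under 0.05) and the 1 without overlap (2.01% of all). With each library left out in turn, its log2 fold change stayed between 0.50 and 0.79, with a lowest adjusted p of 0.50.

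Igfbp2-202 was assigned 2817, 1806, 1634 and 3345 counts with saline and 4101, 369.2, 235.6 and 779.4 counts with 4-HPAA. In the 4-HPAA group, livers 2, 3 and 4 were below every saline liver, while liver 1 was above them all. The log2 fold change was -0.75 (standard error 0.77; edgeR's quasi-likelihood test, unadjusted p = 0.353, adjusted p = 1.00). Without 4-HPAA liver 1 it was further from 0, at -2.34, with an adjusted p of 0.20 by the same test. With each library left out in turn it stayed negative, and it was nearest to 0 without 4-HPAA liver 3, at -0.40. As a share of all Igfbp2 counts, Igfbp2-201 made up 79.2, 85.2, 83.1 and 76.2% with saline and 78.4, 96.5, 98.1 and 96.2% with 4-HPAA. The mean share was 80.9 ± 4% with saline and 92.3 ± 9.31% with 4-HPAA (SD, n = 4 each), a difference of 11.4 percentage points (exact permutation test, two-sided, p = 0.114, adjusted p = 0.238 over 5 members). The smallest p that 4 livers against 4 can give is 0.0286. Because the later exons are shared, the split rests on reads from the first exons and their junctions, and how the counting program divided them could not be checked from counts.

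**Figure D4:**
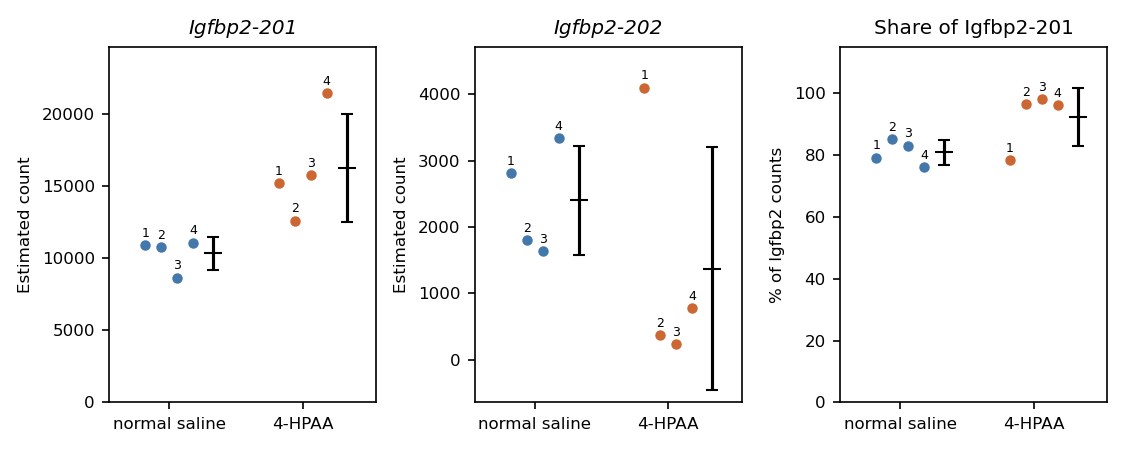
Estimated counts of Igfbp2-201 (left) and Igfbp2-202 (middle), and the share of Igfbp2-201 in all Igfbp2 counts in percent (right), per liver with mean and SD of 4. The Igfbp2-201 counts of the 4-HPAA livers (12594 to 21426) all exceed those of the saline livers (8652 to 11083), and 4-HPAA liver 1 is the exception in the other panels.

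Ahsg and Fetub encode the fetuins, fetuin-A, a carrier of mineral in plasma that also inhibits the insulin receptor, and fetuin-B, an inhibitor of the egg protease ovastacin. They are neighbours on chromosome 16 (Ahsg chr16:22891277-22899449 and Fetub chr16:22918334-22939778, both on the plus strand), with 18884 bases between them. Ahsg measured 7058, 6761, 6334 and 8040 CPM with saline and 7514, 5760, 6440 and 8053 CPM with 4-HPAA. These ranges nearly coincide, with liver 4 the highest of both groups. Mean levels were 7048 ± 725 CPM and 6941 ± 1034 CPM (SD, n = 4 each), and the log2 fold change was -0.02 (standard error 0.14, 95% interval -0.33 to 0.29). Fetub measured 435, 510, 393 and 516 CPM with saline and 547, 370, 373 and 477 CPM with 4-HPAA. The highest and the lowest Fetub values were both found with 4-HPAA. Its log2 fold change was -0.07 (standard error 0.15, 95% interval -0.40 to 0.26). The span of an antisense gene, Gm30505, introns included, covers 3110 bases of Ahsg on the opposite strand. Gm30505 had no matched transcript and so no counts here. The library kit keeps strand, but the standard parameters of kallisto named in the methods do not use it. Whether exons of these genes overlap, and whether antisense reads were counted for Ahsg, was not tested.

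Of the 6 gene pairs tested, the fetuins had the highest correlation from liver to liver, though not past the adjusted threshold. Over the 8 livers, Pearson's r of log2 CPM was 0.80 (exact permutation test, two-sided, p = 0.0246, adjusted p = 0.148 over the 6 pairs) and Spearman's rho was 0.76 (exact permutation p = 0.0368, adjusted p = 0.221). Without 4-HPAA livers 2 and 4, the farthest from the Ahsg median, r was 0.79, and with group means removed it was 0.80. The hepatocyte marker sum, most of it Alb, also was highest in liver 4 of each group, as Ahsg was. Not all markers of that list followed, and Cyp2e1 and Serpina1c were lowest there. The part of hepatocyte markers in the relation of the fetuins was not tested. Coefficients as high were found among members outside the tested pairs, 0.81 for Ahsg with Angptl8 and 0.81 for Angptl4 with Gdf15, given as a description. Ahsg-201 held 98.6% of Ahsg counts with saline and 98.9% with 4-HPAA on average, and Fetub-201 held 82.7% and 80.7% of Fetub counts. For both shares the exact permutation test gave an adjusted p of at least 0.238.

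Angptl4, a lipoprotein lipase inhibitor and a target of the PPAR transcription factors, was the steadiest member. On chromosome 17 (chr17:33773750-33781830, minus strand) it gave 201, 175, 187 and 163 CPM with saline and 182, 151, 189 and 168 CPM with 4-HPAA. The highest of the 8 livers was 1.33 times the lowest. Its log2 fold change was -0.07 (standard error 0.10), and the 95% interval of -0.29 to 0.14 was the narrowest of the 9 members. Most of its counts did not fall on the transcript for the full protein. Angptl4-202, annotated as a target of nonsense-mediated decay, took a mean of 75.6% of the counts, between 73.4% and 78.3% in the 8 livers, and Angptl4-201, which codes for 410 residues, took 21.1%. In GENCODE release M21 the pair differ at the start of exon 3, where Angptl4-201 has 4 bases (chr17:33780644-33780647) that Angptl4-202 lacks. Without them the annotated reading frame ends in exon 3 after 154 residues. The last bases of exon 2 and the first of exon 3 are shown for both, with the 4 bases in capitals.
Angptl4-201: tcttcagagccagATAGacctcttggcccc
Angptl4-202: tcttcagagccagacctcttggcccc
The transcripts also have different annotated ends, by 287 bases at the 5′ end and 1158 bases at the 3′ end, and what these ends contribute to the split was not tested. The share of Angptl4-202 was 75.5 ± 0.142% with saline and 75.7 ± 2.24% with 4-HPAA (SD, n = 4 each; exact permutation test, two-sided, p = 0.914).

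Angptl6 and Angptl8 lie on chromosome 9 and were far below Angptl4 in level. Angptl6, known for effects on energy expenditure and vessel growth (chr9:20873808-20879727, minus strand), gave 10.3, 7.55, 8.1 and 6.77 CPM with saline and 8.52, 9.1, 11.6 and 8.5 CPM with 4-HPAA. Values with 4-HPAA were higher in 13 of 16 pairs of livers. On the log2 scale the difference was 0.21 (standard error 0.15, 95% interval -0.13 to 0.55; edgeR's quasi-likelihood test, unadjusted p = 0.206, adjusted p = 1.00), and with each library left out it ranged from 0.09, without 4-HPAA liver 3, to 0.34, without saline liver 1. Angptl8, which insulin and feeding induce and which restrains lipoprotein lipase (chr9:21835510-21837347, plus strand), gave 8.5, 6.62, 8.69 and 11.2 CPM with saline and 12.7, 7.4, 7.38 and 13.4 CPM with 4-HPAA. 4-HPAA livers 1 and 4 were above all saline livers, and livers 2 and 3 within the saline range. Its log2 fold change of 0.22 (standard error 0.23, 95% interval -0.30 to 0.74) was -0.06 without saline liver 2 and 4-HPAA liver 4. Both genes overlap another on the opposite strand. By gene span, introns included, Angptl6 shares 500.0 bases with A230050P20Rik, which averaged 1303.7 counts. Angptl8 lies wholly within the span of Dock6, which averaged 427.9 counts. Whether exons overlap, and so whether any reads could fit both genes, was not tested.

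Fgf21 and Gdf15, the stress-induced hormones, were the least abundant members and varied most. Fgf21 (chr7:45613886-45615490, minus strand) was at 2.92, 1.03, 0.59 and 1.44 CPM with saline and at 0.628, 0.4, 1.68 and 5.95 CPM with 4-HPAA, from 12 to 170 counts. The 4-HPAA group held both the lowest and the highest liver, which differed 14.9-fold. Its pooled SD within groups, 1.33 on the log2 scale, exceeded that of 99.8% of the genes tested, against a median SD of 0.18. On the log2 scale the difference was 0.52 (standard error 0.77, 95% interval -1.19 to 2.24), and its direction rested on single livers: it was -0.73 without 4-HPAA liver 4 and 1.08 without saline liver 1. With both left out it was -0.16. As a ratio the interval ran from 0.438 to 4.72, and the difference was within the spread between livers.

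Gdf15 (chr8:70629393-70632456, minus strand) was at 11, 3.57, 3.94 and 5.39 CPM with saline and at 7.19, 1.6, 5.4 and 3.01 CPM with 4-HPAA. Saline liver 1 was the highest of the 8 livers and 4-HPAA liver 2 the lowest. Between the groups the log2 fold change was -0.47 (standard error 0.47, 95% interval -1.52 to 0.58) and was 0.00 without saline liver 1, the library with high Nr4a1 and Ddit4. The pooled SD within groups was 0.84, above that of 98.9% of the genes tested. Its transcripts Gdf15-201 and Gdf15-202 both code for 303 residues and differ before the coding region. The share of Gdf15-202 was 41.7, 55.9, 35.8 and 50.4% with saline and 69.5, 85.5, 76.2 and 49.5% with 4-HPAA, on 48 to 342 counts. Livers 1, 2 and 3 of the 4-HPAA group were above every saline liver, and liver 4 within the saline range. The difference of the means, 24.3 percentage points, did not pass the exact permutation test (two-sided, p = 0.0857, adjusted p = 0.238). Between the livers, Fgf21 and Gdf15 had an r of 0.32 (exact permutation test, p = 0.447, adjusted p = 0.536) and a rho of 0.31 (exact permutation p = 0.462, adjusted p = 0.554). Without 4-HPAA livers 2 and 4 r was 0.59, and with 1 library left out it ranged from -0.06 to 0.75.

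**Figure D5:**
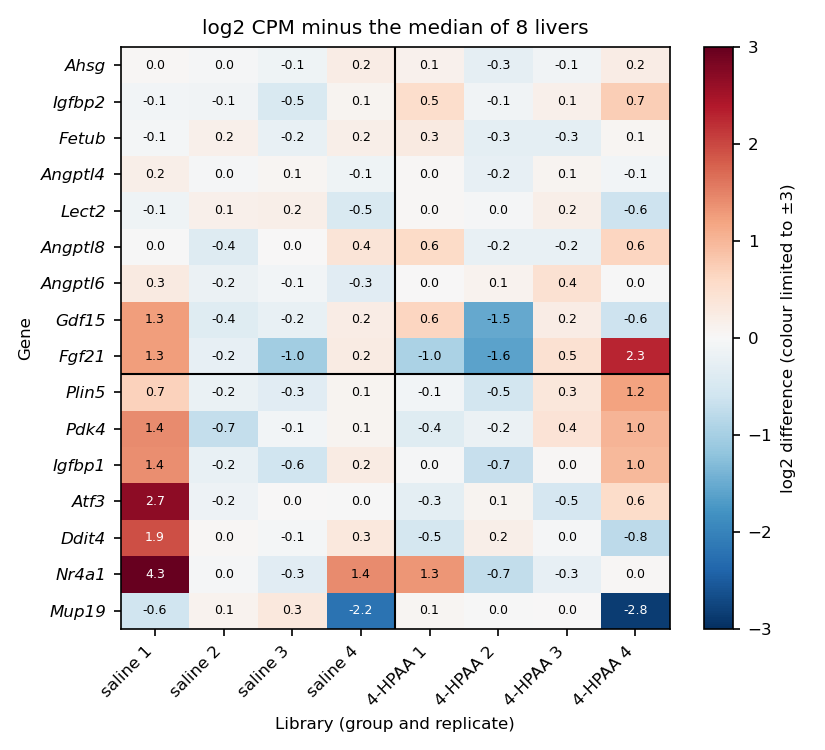
Log2 CPM of each gene in each liver minus the median of the 8 livers, with the 9 members above the line and 7 other genes, chosen after their values were seen, below it. Fgf21 is highest in 4-HPAA liver 4 (5.95 CPM) and next in saline liver 1 (2.92 CPM), as is Plin5 (169 and 118 CPM), and Lect2 and Mup19 are lowest in liver 4 of each group.

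Lect2 (chr13:56542464-56548502, minus strand) was at 51.2, 61.6, 62.5 and 40.5 CPM with saline and at 57.3, 54.1, 62.4 and 36.2 CPM with 4-HPAA. Liver 4 was the lowest of each group, in contrast to Ahsg, for which it was the highest. Over the 8 livers Lect2 and Ahsg had an r of -0.73, a pair chosen after the values were seen and given as a description of points that share a library. The log2 fold change was -0.04 (standard error 0.18, 95% interval -0.45 to 0.37), and Lect2-201 held 99.8% of the counts. Ctnnb1, which encodes beta-catenin, an inducer of Lect2 in liver, gave no detectable relation in these livers (r = 0.04, exact permutation test, two-sided, p = 0.932, adjusted p = 0.932, and rho = -0.07, exact permutation p = 0.882, adjusted p = 0.882). Without liver 4 of both groups r was -0.36. Ctnnb1 ranged from 152 to 171 CPM in the 8 livers, and beta-catenin protein was not measured. The pair therefore does not test whether beta-catenin induces Lect2 here.

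The other pairs were taken from textbook regulation, and none passed. Angptl4 and Pdk4, both PPAR targets, had an r of 0.39 (exact permutation p = 0.342, adjusted p = 0.513) and a rho of 0.38 (exact permutation p = 0.36, adjusted p = 0.54), and r was -0.20 without saline liver 1 and 4-HPAA liver 2. Angptl8 and the fatty acid synthase gene Fasn had an r of 0.45 (exact permutation p = 0.264, adjusted p = 0.513) and a rho of 0.38 (exact permutation p = 0.36, adjusted p = 0.54). Igfbp2 and Igfbp1 had an r of 0.45 (exact permutation p = 0.259, adjusted p = 0.513) and a rho of 0.60 (exact permutation p = 0.132, adjusted p = 0.397). Leaving out 4-HPAA livers 1 and 4 gave an r of 0.22 for the former pair and 0.36 for the latter.

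Promoter windows from RefSeq (GRCm38.p6, 250 bases before to 50 after a start) were available for 8 of the 9 members, all but Angptl4, with 11 windows in all. The response element of C/EBP and ATF factors, searched as TGATGNAA on both strands, occurred in the windows of Fgf21, at position -139 from the start, and Angptl8, at position -130, and in 3.97% of all 32817 promoters. A TATA box, TATAAA, was found for Fgf21 at -28 and Fetub at -31, and in 13.6% of all promoters. The letters of the CCAAT box were found for Ahsg at 22, Gdf15 at -6 and Fetub at -218 and 44, and in 37.4% of all. Positions without a minus sign lie past the start. The cAMP response element TGACGTCA (1.79% of all) and the direct repeat 1 that PPAR and RXR bind (0.0396%) were in none of the 11 windows. These matches describe the letters of the windows only.

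Around the members, 155 genes of receptors, partners, other hepatokines and regulators were tested, without the members themselves. None had an adjusted p under 0.05. By edgeR's quasi-likelihood test, 8 (5.16%) had an unadjusted p under 0.05, against 1.75% of all genes tested. The lists were chosen with earlier results of these data known. 79 were higher and 76 lower, with a median log2 fold change of 0.001. Groups without overlap were found for 2 (1.29%), against 1.20% of all genes tested. In the receptors and ligands of FGF21 and GDF15 signaling, 1 of 6 genes was higher and 5 lower, from Fgfr4 at -0.16 to Fgfr2 at 0.10 on the log2 scale, and Gfral, Ret and Fap were below the count minimum. The fetuin partners split 3 to 3, with a range from -0.19 (Mep1b) to 0.09 (Insr). Of 5 tested LECT2 partners 4 were higher, up to 0.43 for the growth factor gene Hgf (standard error 0.37), and Hgfac was lowest at -0.14.

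The angiopoietin-like and lipase list had 7 genes higher and 7 lower, with the endothelial lipase gene Lipg highest at a log2 fold change of 0.15. Among 33 other hepatokines 12 were higher and 21 lower. Fgl1, a secreted fibrinogen-like protein, was at 426, 526, 401 and 465 CPM with saline and 420, 346, 335 and 285 CPM with 4-HPAA, with 4-HPAA liver 1 inside the saline range. Its log2 fold change was -0.39 (standard error 0.13; edgeR's quasi-likelihood test, unadjusted p = 0.0131, adjusted p = 1.00), and it was -0.24 without saline liver 2 and 4-HPAA liver 4. The ends of that list were Inhbb at 0.39 and Lcn2 at -0.76, the latter with 17.6 CPM in saline liver 1 against 4.43 to 5.21 CPM in the other saline livers.

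Of the IGF system 6 genes were higher and 5 lower, from Igfbp1 at -0.22 to Igfbp7 at 0.33 (standard error 0.15; edgeR's quasi-likelihood test, unadjusted p = 0.0469, adjusted p = 1.00). Igfbp1 was at 378 CPM in saline liver 1, against 95.6 to 170 CPM in the other saline livers. Of 18 PPAR alpha targets 13 were higher, with Plin5 at 0.26, and 5 lower. Cd36, a fatty acid transporter, had values of 43.8, 47.6, 47.3 and 43.2 CPM with saline and 37.7, 41, 32.8 and 35.8 CPM with 4-HPAA. The groups did not overlap, with a log2 fold change of -0.30 (standard error 0.08; edgeR's quasi-likelihood test, unadjusted p = 0.00435, adjusted p = 1.00), and its unadjusted p stayed under 0.05 with each of the 8 libraries left out. The lipogenic list, which insulin and ChREBP induce, had 9 genes higher and 6 lower, with the fatty acid elongase gene Elovl6 highest at 0.25.

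In the stress and fasting lists, Ddit4 and Nr4a1 rested on saline liver 1. ATF4 and integrated stress response targets split 7 to 7, from Atf3 at -1.21 to Trib3 at 0.46. Atf3 was low and also highest in saline liver 1, at 4.42 CPM against 0.617 to 0.689 CPM in the other saline livers. With 4-HPAA it ranged from 0.485 to 1.01 CPM. The log2 fold change of Ddit4 was -1.06 (edgeR, unadjusted p = 0.037, adjusted p = 1.00) and -0.34 without saline liver 1. Of the fasting and FOXO1 targets 5 were higher, up to Irs2 at 0.20, and 9 lower, and Nr4a1 was at -2.25 (edgeR, unadjusted p = 0.0447, adjusted p = 1.00) and at -0.25 without that library. Among 25 upstream transcription factors 15 were higher and 10 lower, from Pparg at -0.27 to Foxa2 at 0.63 (edgeR, unadjusted p = 0.0432, adjusted p = 1.00). Foxa2 ranged from 11.9 to 19.1 CPM with saline and from 12 to 32.6 CPM with 4-HPAA, and the groups overlapped. Its log2 fold change was 0.41 without 4-HPAA liver 3.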

How the data were processed

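Liver RNA was sequenced as directional mRNA libraries in 8 samples, 4 per group, grouped by GEO's sample labels. Per the labels and the study's methods, the authors checked paired reads with FastQC 0.11.9, ran kallisto against GRCm38.p6 transcripts, and left the result unnormalized, so the deposited values are 1 estimated count per transcript and library. The study's methods name NCBI annotations, but the file carries Ensembl identifiers, whose release is not given in the sources used here. They also give standard parameters for kallisto, which take no account of strand. Columns without a sample numbered 0, and replicates were not pooled.

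Of 119414 transcripts, 116728 were matched to GENCODE M21 (GRCm38), and the rest held 0.703% to 1.06% of a library's counts. Counts were summed per gene and rounded. Genes that reached 10 counts in each library entered edgeR 4.0.16 in R 4.3.3 (TMM, quasi-likelihood F test, Benjamini-Hochberg adjustment, threshold 0.05). TPM were computed from estimated counts and annotated transcript lengths. Log2 CPM for correlations carried a prior count of 2. Alternatives used DESeq2 1.42.0, limma-voom (limma 3.58.1), other normalizations and filters, single transcripts, a replicate block and libraries left out. The fits by edgeR, DESeq2 and limma-voom were tested on simulated counts that had the same dispersion for every gene. Total counts per library were 29559978 to 30673398, and errors are given as the spread between livers.

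The members and gene lists were chosen with earlier results of these data known. Besides the members and the textbook pairs, the genes named are those of the related lists with an unadjusted p under 0.05, the highest and lowest of each list, and the 3 genes most alike in pattern to each member, and some genes that this rule names are not reported here. Members that also belong to a related list were left out of its counts.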

Additional observations from a re-analysis of the deposited data

Results flagged for a closer look

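Of 48 groups of 4 livers examined, 3 had a liver set apart from the rest by more than Dixon's 95% critical value, where chance gives about 1 in 20, or 2.4. The share of Igfbp2-201 in Igfbp2 counts was 78.4% in 4-HPAA liver 1, against 96.2% to 98.1% in the other 4-HPAA livers, and the gap took up 0.9 of the range of the group. Summed red blood cell markers were at 2609 CPM in saline liver 2, against 247 to 376 CPM in the other saline livers (0.945 of the range), and at 735 CPM in 4-HPAA liver 4, against 152 to 164 CPM (0.98 of the range). 4-HPAA liver 4 was also the highest of the 8 livers in Fgf21, Igfbp2, Angptl8 and, by a small margin, Ahsg, and the lowest in Lect2.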

How the results depend on the processing

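No member passed the adjusted threshold under any of the 18 alternatives run for the members. Values of members are log2 fold changes. Over all genes, the count that passed was 2 with DESeq2 (Zfp36l2 and Ggnbp1) and 1 without 4-HPAA replicate 1 (CAAA01147332.1), and with each library left out it lay between 0 and 1. Igfbp2, Angptl4 and Angptl6 kept their direction in all 18. Fgf21 turned to -0.01 with limma-voom, to -0.73 without 4-HPAA replicate 4, to -0.87 without saline replicate 2 and 4-HPAA replicate 4 together, and to -0.16 without saline replicate 1 and 4-HPAA replicate 4, a combination chosen after seeing the data. Gdf15 went to 0.00 without saline replicate 1, to 0.17 for its transcript Gdf15-202 alone and to 0.14 without that last combination, and Lect2 to 0.08. Without saline replicate 2 and 4-HPAA replicate 4 together, Angptl8 was at -0.06 and Lect2 at 0.17. With 1 library left out, values ranged from -0.73 to 1.08 for Fgf21, -0.83 to 0.00 for Gdf15, -0.18 to 0.01 for Fetub, -0.11 to 0.06 for Ahsg and -0.16 to 0.10 for Lect2. Those that changed sign were Fetub at 0.01 and 0.00 (without 4-HPAA replicate 2 or 3), Ahsg at 0.05, 0.06 and 0.01 (without saline replicate 4 or 4-HPAA replicate 2 or 3), and Lect2 at 0.03, 0.04 and 0.10 (without saline replicate 2 or 3 or 4-HPAA replicate 4). The cause was not tested.

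The deviations of same-numbered livers had correlations across genes from 0.0398 to 0.48. No values of differently numbered livers were set beside these, so they do not decide whether the numbers pair the livers. The main fit left the numbers out because the labels give them only as replicates. Under a replicate block 0 genes passed and 336 had an unadjusted p under 0.05, against 225 without it. With group means and the replicate block removed, 1 of the 6 gene pairs passed (Ahsg and Fetub, r = 0.92), against 0, and r of Angptl8 and Fasn went from 0.45 to -0.52. With 4 livers a group, the 95% intervals of Fgf21 and Gdf15 were the widest of the members.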

Other observations

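The genes whose log2 CPM followed each member most closely over the 8 livers are given as a description, among 11999 genes with a mean of at least 1 CPM. The points share libraries and depth, and the genes were selected for these coefficients. For Fgf21 they were Psmc1 (r = 0.984), the lipid droplet gene Plin5 (0.976) and the acyl-CoA dehydrogenase gene Acadl (0.974). For Gdf15 they were Gm42857 (0.969), Ehd2 (0.965) and Cep95 (0.929), and for Angptl4 Olfr1312 (0.955), Ppp2r5c (0.941) and Olfr147 (0.923). Angptl6 was followed by Il4ra (0.964) and Scarf2 (0.953), and Angptl8 by Hsd17b11 (0.958), Ndufa1 (0.955) and Cops5 (0.944). Closest to Ahsg were Gm29216 (0.991), Prdx4 (0.990) and Mrpl24 (0.985), and closest to Fetub were Phyhd1 (0.978), Icam2 (0.970) and Stk25 (0.962). Igfbp2 was followed by Timm10b (0.977), Rnf8 (0.968) and Cbx8 (0.963), and Lect2 by Tti1 (0.992), Prrc2a (0.989) and the major urinary protein gene Mup19 (0.978). Plin5 was at 118, 63.8, 58.4 and 78.1 CPM with saline and 69.3, 50.4, 92.4 and 169 CPM with 4-HPAA. Mup19 was at 4364, 7126, 8190 and 1416 CPM with saline and 6899, 6522, 6621 and 913 CPM with 4-HPAA, lowest in liver 4 of each group as Lect2 was.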
